A study of Arabidopsis thaliana with 2 samples.

Results

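Peaks of the transcription factor ERF115 were assigned to 4 microRNA genes of Arabidopsis thaliana: MIR168a (AT4G19395), MIR158a (AT3G10745), MIR161 (AT1G48267) and MIR391 (AT5G60408). They were taken from the authors' deposited peak list as the peaks whose assigned locus is 1 of these genes, so the members were chosen by the presence of a peak in these same data. They make up 4 of 612 peaks and 4 of 608 loci with a peak. The tested cells were a PSB-D suspension culture of the Landsberg erecta ecotype, grown in the dark, that carried 35S::ERF115-HBH. In this transgene the constitutive 35S promoter drives ERF115 fused to the HBH affinity tag. Wild-type PSB-D cells, purified in the same way, served as a mock, and both cultures were crosslinked with 0.75% formaldehyde 2 days after subculturing. Each group is 1 library, so no value below has a replicate error and no test was made. The peaks come from cells with constitutive ERF115 in liquid culture and not from roots. Values of the mock library itself were not analysed here.

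ERF115 is an AP2/ERF transcription factor known for promoting cell division in the quiescent centre of the root. Plant microRNA genes are transcribed by RNA polymerase II like protein-coding genes. Their transcripts fold into hairpins that the nuclease DCL1 cuts with the help of HYL1 and SE, HEN1 methylates the product, and an ARGONAUTE protein, mostly AGO1, uses it to find matching mRNAs. MiR168 targets the mRNA of AGO1 itself, so it acts in a feedback loop on the whole pathway. MiR161 is known for targeting mRNAs of pentatricopeptide repeat (PPR) proteins, which process RNA in organelles. MiR158 was predicted to target a PPR mRNA as well. MiR391 resembles miR390, the microRNA that AGO7 uses to start the production of small RNAs from TAS3 transcripts.

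The microRNA genes differed widely in the scores of their peaks. The score of a peak is the authors' own value from the peak caller MACS, 10 times the negative log10 of the p-value of the peak, and it ran from 50.01 to 537.85 over the list with a median of 78.9. Each coordinate below is on TAIR10 and counted from 1. The MIR168a peak, at chr4:10575807-10579018, scored 197.98 and ranked 37 of 612. It scored 2.51 times the list median, and 94.0% of all peaks scored lower. The MIR158a peak, at chr3:3364882-3367192, scored 138.16 and ranked 98, or 1.75 times the median. MIR168a and MIR158a were thus the 2 members among the 192 peaks with a score of at least 100.

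The other 2 microRNA genes had peaks near the middle of the list. The MIR391 peak, at chr5:24293116-24295310, scored 87.58 and ranked 254. The MIR161 peak, at chr1:17823249-17826214, scored 82.18 and ranked 284, which is 1.04 times the median. All 4 members ranked within the first 306 of the 612 peaks, and the lowest, MIR161, lay well above the list minimum of 50.01. The 4 peaks stood on 4 different chromosomes. None of the 4 carried the TP mark that the authors' deposited table sets beside 22 of 612 peaks, under the heading DE. With 4 peaks, a count of 0 is near that share. The sources used here explain neither the mark nor its heading.

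**Figure D1:**
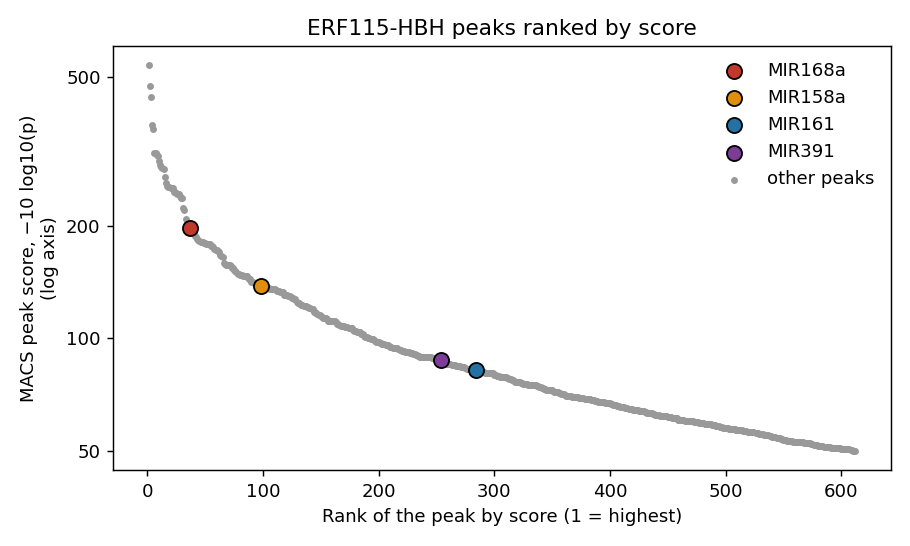
Score of each of the 612 ERF115-HBH peaks (vertical log axis, MACS score, from the negative log10 of the p-value) against its rank by score, 1 being the highest; large points are the microRNA genes and small grey points the other peaks. MIR168a stands at rank 37 with a score of 197.98 and MIR158a at rank 98, while MIR391 and MIR161 stand at ranks 254 and 284, in the flat middle of the curve.

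Among all 326 microRNA genes of the names table, 4 had an assigned peak, or 1.23%. Of all 37899 nuclear loci listed there, 600 did, or 1.58%, and among its 27444 protein-coding genes 564 did, or 2.06%. The 4 genes were picked because they had a peak, so these shares only describe the list. The names table differs from the annotation by which the authors assigned peaks, as it lacks 8 of the 608 loci with a peak. Some of its loci may thus have had no way to be assigned a peak, which was not checked. This limit holds for every share, adjacent locus and gene order position given here. Among peaks with a score of at least 100, the share was 0.613% of microRNA genes and 0.501% of all nuclear loci. Within the first 306 ranks it was 1.23% of microRNA genes and 0.794% of all nuclear loci.

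All 4 peaks were labelled intergenic by the authors. MIR168a, MIR158a and MIR161 carried the label intergenic 5', as did 275 of 612 peaks (44.9%). MIR391 carried the label intergenic 3', as did 117 peaks (19.1%). Taken at face value, 5' means upstream and 3' downstream of the assigned gene, but gene strand was not used to check this. Each peak has 1 label and 1 locus, so a wide peak may also reach a gene next to the microRNA gene.

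Each of the 4 microRNA peaks was wider than the median peak. With only 4 peaks, chosen for being on the list, this does not set microRNA genes apart from other loci. The MIR168a peak was 3212 bp wide, the MIR161 peak 2966 bp, the MIR158a peak 2311 bp and the MIR391 peak 2195 bp. All 4 exceeded the list median of 1894 bp (quartiles 1372 and 2901 bp), by factors of 1.16 at MIR391 to 1.70 at MIR168a. MIR168a and MIR161 also exceeded the upper quartile, while MIR158a and MIR391 lay within the quartiles. Score and width were nearly unrelated over the list (Spearman's rho 0.10 over 612 peaks of the same library, a description across peaks that are not replicates). When the score was divided by width, the members moved down the list. MIR158a then ranked 157 with 59.8 per kb and MIR168a ranked 145 with 61.6 per kb, both above the list median of 41.1 per kb. MIR391, with 39.9 per kb, and MIR161, with 27.7 per kb, fell below that median, at ranks 323 and 467.

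**Figure D2:**
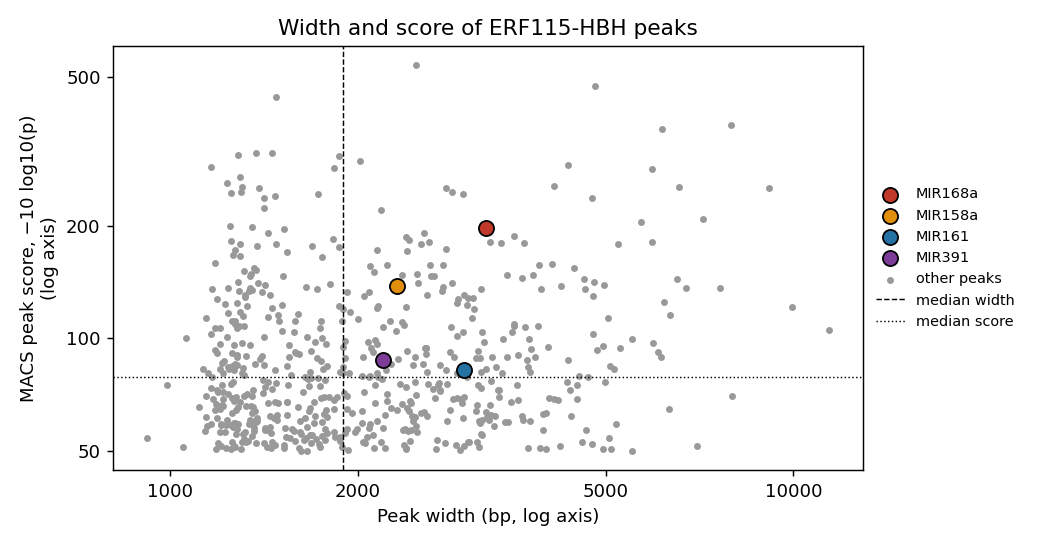
Width (horizontal log axis, bp) and score (vertical log axis, MACS score, from the negative log10 of the p-value) of the 612 ERF115-HBH peaks, with large points for the microRNA genes; the dashed line is the median width of 1894 bp and the dotted line the median score of 78.9. All 4 microRNA peaks lie right of the dashed line, and MIR161, at 2966 bp and 82.18, is almost as wide as MIR168a, at 3212 bp and 197.98, with a far lower score.

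The authors give 1 position inside each peak, taken here as its reference point, and its place in the peak differed between members. At MIR168a it was 10577553, which is 1746 bp from the peak's start and 1465 bp from its end, so near the middle. At MIR158a it was 3366556, and the end of the peak lay only 636 bp away. At MIR161 and MIR391 it lay near the start instead, 524 and 604 bp from it. Over the whole list the median distance of this point from the midpoint of the peak was 209 bp, and the sources used here do not say how the point was chosen.

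None of the loci next to a member in gene order had a peak of its own. Of all nuclear loci only 1.58% had one, and a peak assigned to the microRNA gene is not assigned to its neighbours. The lack of peaks at these few loci is thus near that share. MIR168a sits between the protein-coding gene AT4G19390 and the long non-coding RNA gene AT4G06880. MIR158a sits between ASD1 (AT3G10740), an alpha-L-arabinofuranosidase that acts on cell wall polymers, and AT3G10750. MIR161 sits between CIPK17 (AT1G48260), a protein kinase that works with calcium sensors of the CBL family, and the transcribed pseudogene AT1G48268. MIR391 sits between AT5G60400 and SIZ1 (AT5G60410), a ligase that attaches the small protein SUMO to other proteins. How close each of the 4 peaks lies to these genes compared with the microRNA gene was not tested. Counting a gene also when the locus next to it had a peak took the number of microRNA genes to 11 of 326, or 3.37%, against 4.60% of all nuclear loci.

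The distance to the nearest other peak differed widely among the members, at 22.0 kb for MIR391, 52.2 kb for MIR158a, 253.4 kb for MIR168a and 580.2 kb for MIR161. Over all 612 peaks the median of this distance was 37.4 kb (quartiles 11.2 and 95.0 kb), so MIR391 lay below the median, MIR158a between the median and the upper quartile, and MIR168a and MIR161 above that quartile. The MIR391 peak was the one with another peak within 50 kb. That peak, assigned to AT5G60460 at chr5:24317343-24319445, lay 22.0 kb away, was labelled intergenic 5' and scored 94.10, a little more than the 87.58 of MIR391. On its other side the nearest peak was 292.5 kb away, at RDUF2 (AT5G59550), with a score of 61.11. Within 1000 kb on either side there were 14 other peaks, and MIR391 had the 7th highest score of the 15.

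The MIR158a peak lay between 2 peaks of low score, both labelled intergenic 3'. The peak of LSF2 (AT3G10940), a phosphatase of starch breakdown, was 52.2 kb away at chr3:3419361-3422510 and scored 55.54. The peak of LGO (AT3G10525), an inhibitor of cyclin-dependent kinases, was 84.0 kb away at chr3:3278520-3280892 and scored 51.94. Both are close to the list minimum of 50.01, against 138.16 at MIR158a. Within 1000 kb on either side, 22 other peaks were present and MIR158a had the third highest score of the 23.

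The peaks nearest to that of MIR168a were 253.4 kb away at RABA1d (AT4G18800), a small GTPase of membrane traffic, with a score of 67.05, and 634.7 kb away at PyrD (AT4G20960), an enzyme of riboflavin synthesis, with a score of 58.89. Of all 612 peaks, 92.3% had a closer neighbour. Within 1000 kb on either side there were 12 other peaks, close to the 14 around MIR391, and MIR168a had the highest score of the 13.

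The MIR161 peak was the most isolated of the 4. The nearest peaks were 580.2 kb away at AT1G49740 (score 107.85, intergenic 5') and 726.3 kb away at AT1G45170 (score 85.33, coding 3'). No other peak lay within 500 kb, and 98.4% of all peaks had a closer neighbour. Within 1000 kb there were 5 other peaks, of which 2 scored higher than MIR161 with its 82.18.

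**Figure D3:**
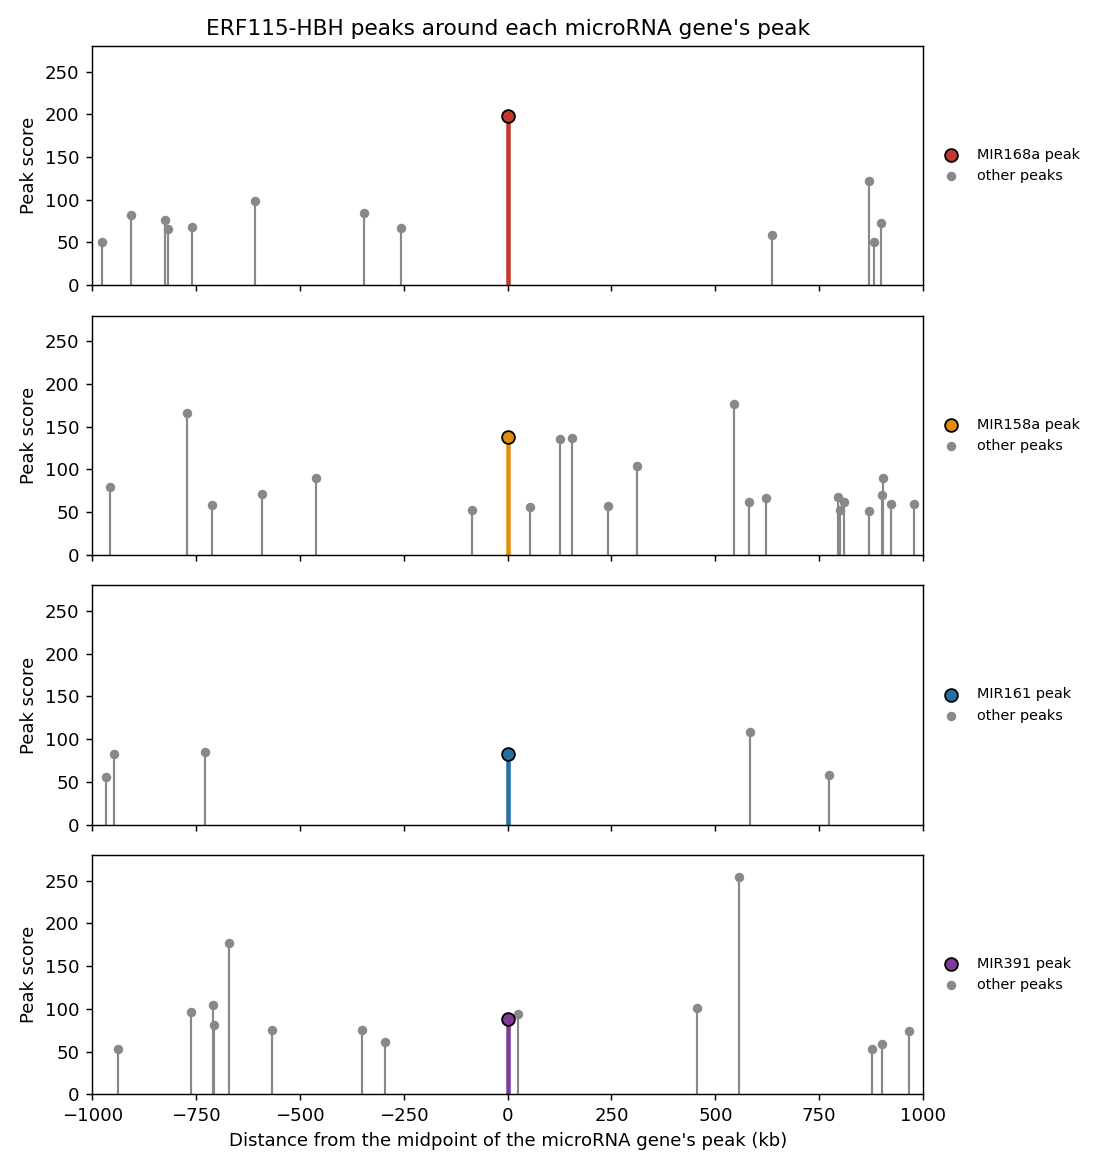
Scores of the ERF115-HBH peaks within 1000 kb of each microRNA gene's peak, against the distance between peak midpoints in kb; each panel is centred on 1 microRNA gene, drawn in colour, and grey stems are other peaks. The MIR168a peak, at 197.98, is the tallest in its panel with its nearest neighbour 253.4 kb away by the peak edges, MIR161 has no other peak within 500 kb, and MIR391 has a peak of 94.10 beside it.

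None of 4 close relatives of the members had a peak, against 1.58% of all nuclear loci and 1.23% of microRNA genes. With 4 genes, a count of 0 is near those shares and sets the relatives apart from no other loci. MIR168b, the other gene for miR168, was without one, and the nearest locus with a peak was the 90th from it in gene order. MIR158b was without a peak too, the nearest being the 29th locus. MIR390a and MIR390b, whose product resembles miR391, also had none, but each was only 4 loci from one. For MIR390a this was PYL4 (AT2G38310), an abscisic acid receptor, with a score of 81.56. For MIR390b it was EXO70B1 (AT5G58430), a subunit of the exocyst, with a score of 176.66 at rank 56. Over all nuclear loci the nearest other locus with a peak was the 28th in the median (quartiles 11 and 65).

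A peak was also assigned to a gene of the group that miR161 targets. AT1G63130, which the names table also calls RNA PROCESSING FACTOR 6, had a peak at chr1:23411946-23413686, 1741 bp wide, with an intergenic 5' label. It scored 51.16, at rank 587 of 612 and close to the list minimum of 50.01, against 82.18 for the peak at MIR161. It was the 1 gene with a peak among 7 listed targets, against 1.58% of all nuclear loci. The list was chosen with earlier results of these data known, so this count does not show that targets have peaks more often than other loci. The other listed PPR genes of the miR161 group were AT1G06580, RPF2 (AT1G62670), AT1G62910 and AT5G41170, and none had a peak. The listed PPR gene for miR158, AT3G03580, had none either. Which PPR gene each microRNA targets is background knowledge and was not measured here.

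AGO1 (AT1G48410), the target of miR168, had no peak. The locus with a peak nearest to AGO1 in gene order was MIR161, with 21 loci between them. No peak was assigned to any of the 32 genes listed for the making, use and turnover of small RNAs, against 1.58% of all nuclear loci. They include the enzymes and cofactors that make microRNAs (DCL1, HYL1, SE, HEN1), the exporter HST, the ARGONAUTE genes AGO1, AGO2, AGO4, AGO5, AGO6, AGO7 and AGO10, and DCL2, DCL3 and DCL4, which make other small RNAs. None of the 32 was next to a locus with a peak either. Of all nuclear loci, 4.60% had a peak or lay next to a locus with one. With 32 genes, counts of 0 are near both shares. The closest was RDR6, which copies RNA into double strands for small RNA production and is the third locus from NAC062, whose peak scored 57.65. The nearest locus with a peak was a median of 25.5 loci away from these genes, against 28 over all nuclear loci. The depth of the libraries is unknown, so the lack of a peak does not show that ERF115 was absent.

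**Figure D4:**
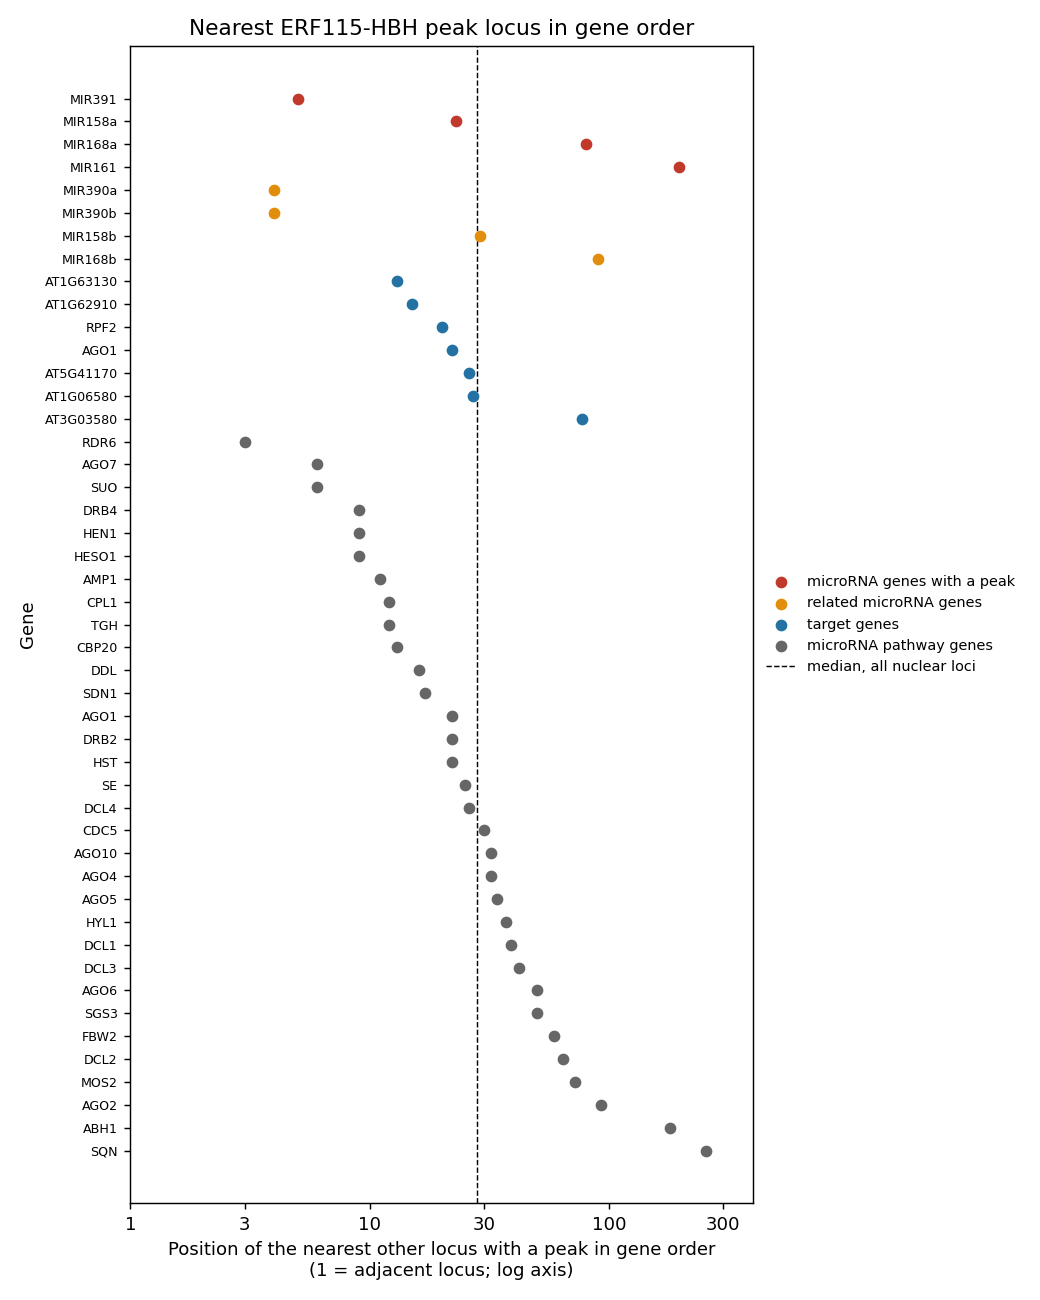
For each gene (rows), the position in gene order of the nearest other locus with an ERF115-HBH peak (horizontal log axis, 1 being the adjacent locus), for the microRNA genes with a peak, their relatives, the listed target genes and the listed pathway genes; the dashed line is the median of 28 over all nuclear loci. MIR161 is 197 loci from the next locus with a peak and MIR391 is 5, and no gene shown is adjacent to one; AT1G63130 also has a peak of its own.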

How the data were processed

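Per the labels' protocols, chromatin bound by tagged ERF115 was recovered on nickel beads and then on streptavidin beads, and sequenced beside a mock from wild-type cells. The submitters' processing notes name the genome build TAIR10 and, for peaks, MACS 1.4.2, beside BWA 0.5.9, Picard, CASAVA 1.8.2 and SAMtools 0.1.18. They give neither parameters nor filters. The authors deposited a peak score for each peak, and its equality in both tables was checked. A deposited Z score was not used further. The score ranks peaks within this list only, and read depth is unknown.

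Ranks, widths and distances between peak edges were computed with Python 3.11.15 and pandas 2.3.3, and the distance and gene order functions were tested on simulated data. A names table from NCBI RefSeq (TAIR10.1) gave symbols, gene types and gene order. It held 600 of the 608 loci with a peak, the 4 microRNA genes and all listed genes. Its coordinates served only to put the loci in order. They were not compared with peak positions, so which genes each peak overlaps was not examined. The genes and lists were chosen with earlier results of these data known. Named are the 4 genes, loci with a peak within 50 kb of them or else the nearest on each side, adjacent loci, relatives, AGO1, listed targets and pathway genes with a peak. RDUF2, PYL4, EXO70B1, RDR6 and NAC062 were added after their values were seen. MicroRNA sequences, promoters and motifs were not analysed here.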

Additional observations from a re-analysis of the deposited data

How the results depend on the processing

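Leaving out a replicate was not possible with single libraries. No paired analysis was possible because there is only 1 library of either kind. Of the 4 microRNA genes with a peak, 4 were left within the first 306 ranks and 2 among peaks with a score of at least 100. With microRNA genes adjacent to a locus with a peak counted, there were 11. Ranked by score per kb, MIR168a stood at rank 145 in place of 37, MIR158a at 157 in place of 98, MIR391 at 323 in place of 254 and MIR161 at 467 in place of 284. Ranked by width, a setting chosen after seeing the data, MIR168a stood at 116, MIR158a at 239, MIR391 at 252 and MIR161 at 144. The division by width lowers the rank of peaks wider than most by construction. Measured between midpoints, the nearest other peak was 255.7 kb from MIR168a, 54.9 kb from MIR158a, 582.3 kb from MIR161 and 24.2 kb from MIR391, each within 20% of the distance between edges. Counting only neighbours with a score of at least 100 gave 867.5 kb for MIR168a, 123.9 kb for MIR158a and 454.3 kb for MIR391, and left 580.2 kb for MIR161. The count of pathway genes with a peak stayed 0 under both score settings and with adjacent loci counted. The 1 target gene with a peak dropped out under both score settings, leaving 0, and remained 1 with adjacent loci counted. These target settings were chosen after seeing the data. Comparisons of seeds and of GCC-box matches were not run, as no sequence was used here.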

Other observations

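Besides the 4 microRNA genes with an assigned peak, 7 lay next in gene order to another locus with a peak. They are named here after their values were seen. Together that is 11 of 326 microRNA genes (3.37%), against 4.60% of all 37899 nuclear loci. MIR169i is adjacent to AFB2 (AT3G26810), an auxin receptor F-box gene, whose peak at chr3:9869684-9871162 scored 440.95 and ranked 3 of 612. That peak was labelled coding 3' with respect to AFB2. Products of the MIR169 family target subunits of the transcription factor NF-Y. MIR775 is adjacent to AT1G78210, where a coding 3' peak scored 175.15. MIR167b, whose product targets auxin response factors, is adjacent to AT3G63380, where an intergenic 5' peak at chr3:23409986-23412727 scored 137.45. MIR5016 is adjacent to WRKY15 (AT2G23320), a transcription factor gene with a coding 5' peak that scored 125.44. MIR1888a is adjacent to AT5G21105, where an intergenic 5' peak scored 115.54.

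The remaining ones had peaks of low score next to them. MIR835 is adjacent to AT1G76070, with a score of 56.00. MIR5652 is adjacent to AT1G63130, the PPR gene of the miR161 group, with a score of 51.16. Adjacent here means next in the order of the names table, and the distance between each microRNA gene and the peak was not measured.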
